A study of Mus musculus with 2 samples.

Results

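Membrane carriers for sugars, amino acids, monocarboxylates and fatty acids were examined in RNA sequencing of mouse hearts. The members are the rows whose symbol belongs to the solute carrier families Slc1, Slc2, Slc3, Slc5, Slc7, Slc16, Slc27, Slc38 or Slc43, which gave 85 of the 24346 rows in each file. The symbol rule also took in 2 rows that are no transporters, Slc7a6os, named for its place opposite Slc7a6, and the pseudogene Slc2a4rg-ps, and it covers carriers of other cargo such as vitamins and nucleobases. The libraries are 2, both of heart tissue kept in RNA preservative and frozen, with an age label of day 14 and a title that names high-fat diet (HFD) and MI, which the series title spells out as myocardial infarction. The treated group, with 1 library, had received probucol, a lipid-lowering antioxidant drug, and the untreated group, also with 1 library, had not. The sources used here do not give the strain, sex or genotype, the region of the heart, the event from which the days count or the number of animals behind a library. Both tables also carry the marks HypoE and CM in their names, which the labels leave unexplained. The tissue label reads heart while the protocol speaks of RNA from cells, so whether a fraction of the tissue was taken is not known. By its title the study is about XCR1+ dendritic cells, T helper cells and remodelling after infarction, and the comparison asks how the treated heart differed from the untreated one.

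Heart muscle takes up long-chain fatty acids, glucose, lactate and ketone bodies and burns them in its mitochondria. Glucose enters through facilitative carriers of the Slc2 (GLUT) family, of which GLUT4 waits in vesicles until insulin or contraction brings it to the surface. Lactate and pyruvate cross with a proton through some members of the Slc16 (MCT) family, which need a helper glycoprotein, basigin or embigin, to reach the membrane. Many amino acid carriers are pairs, with a heavy chain from Slc3 that anchors a transporting light chain from Slc7. Macrophages, fibroblasts and vessel cells carry transporters of their own, so bulk tissue mixes the carriers of all these cells.

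With 1 library per group there is no replicate check and no test, so each difference describes these libraries and not the conditions. Levels are in FPKM, the number of fragments divided by transcript length and by the mapped fragments, so different genes can be compared per length. A log2 ratio is log2((FPKM probucol + 0.5)/(FPKM untreated + 0.5)), so negative values are lower with probucol, and folds are on the same scale, where the difference of a low gene appears smaller than it is. Fragment numbers were estimated from the steps between low values: 1 FPKM over 1 kb stood for 6.68 fragments with probucol and 7.46 without. A counting interval is the exact binomial (Clopper-Pearson) 95% interval of the plain FPKM ratio, probucol over untreated. It used the shortest annotated transcript, which gives the widest interval, and it covers counting error only.

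The cell markers of the tissue differed between the libraries. All 12 cardiomyocyte markers were detected, with a summed level of 65569 FPKM with probucol and 49339 without, and 11 of the 12 had a log2 ratio above 0, the exception being Nppa, the atrial natriuretic peptide. Macrophage markers summed to 1113 FPKM with probucol and 3667 without, with 12 of 12 past 1.5-fold, and fibroblast markers to 952 and 1644 FPKM, with 8 of 10 past it. Endothelial markers summed to 413 and 416 FPKM, and smooth muscle and pericyte markers to 301 and 375 FPKM. Proliferation markers (10.1 against 39.4 FPKM) were lower, erythroid markers (3348 against 1723 FPKM) were higher, and of 9 lymphocyte markers in the files 1 passed the filter used below. Monocyte and neutrophil markers were mixed, with 6 of 9 lower and 2 higher by 1.5-fold, though their sum was 152 FPKM with probucol and 127 without. Of platelet markers, 3 of 5 were higher and 1 lower. Of 7 adipocyte markers, 2 passed the filter, with the list at 33.8 and 31.6 FPKM in sum, nearly all of it Cidea, and Lep and Ucp1 were listed at 0. Of 7 skeletal muscle markers, 3 passed it and 2 of these were higher by 1.5-fold, with the list at 1864 and 1201 FPKM in sum, nearly all of it Ckm, which heart muscle also makes, and Myh2 and Myh4 were listed at 0. For these counts, 12% of all genes past the filter were at least 1.5-fold lower with probucol and 5.52% at least 1.5-fold higher. A log2 ratio below 0 was found for 49.1%. In bulk tissue, fewer cells of a type and less RNA per cell cannot be told apart, and the part of the marker shifts in the transporter values was not tested.

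Of the 85 members, 47 had a mean of at least 0.5 FPKM over both libraries, 18 were detected below that, and 20 were listed at 0 in both libraries. Among the 47, 8 were at least 1.5-fold lower with probucol (17.0%) beside 12% of the 12882 genes past the same filter, and 1 was at least 1.5-fold higher (2.13%) beside 5.52%. At 2-fold, 3 members were lower (6.38%) beside 5.14%, and 0 were higher beside 1.07%. The median log2 ratio was -0.06 beside 0.01 over all genes, and 30 of the 47 members (63.8%) lay below 0 beside 49.1%. The share past 2-fold was close to that of all genes, more members lay below 0, and 38 of the 47 members differed by less than 1.5-fold. The counting interval excluded a ratio of 1 for 15 members, 8 of them lower and 7 higher. When each library was divided by its total FPKM, 11 were lower and 4 higher. The same share over all genes is not given here, so this count has no background to be read against.

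**Figure D1:**
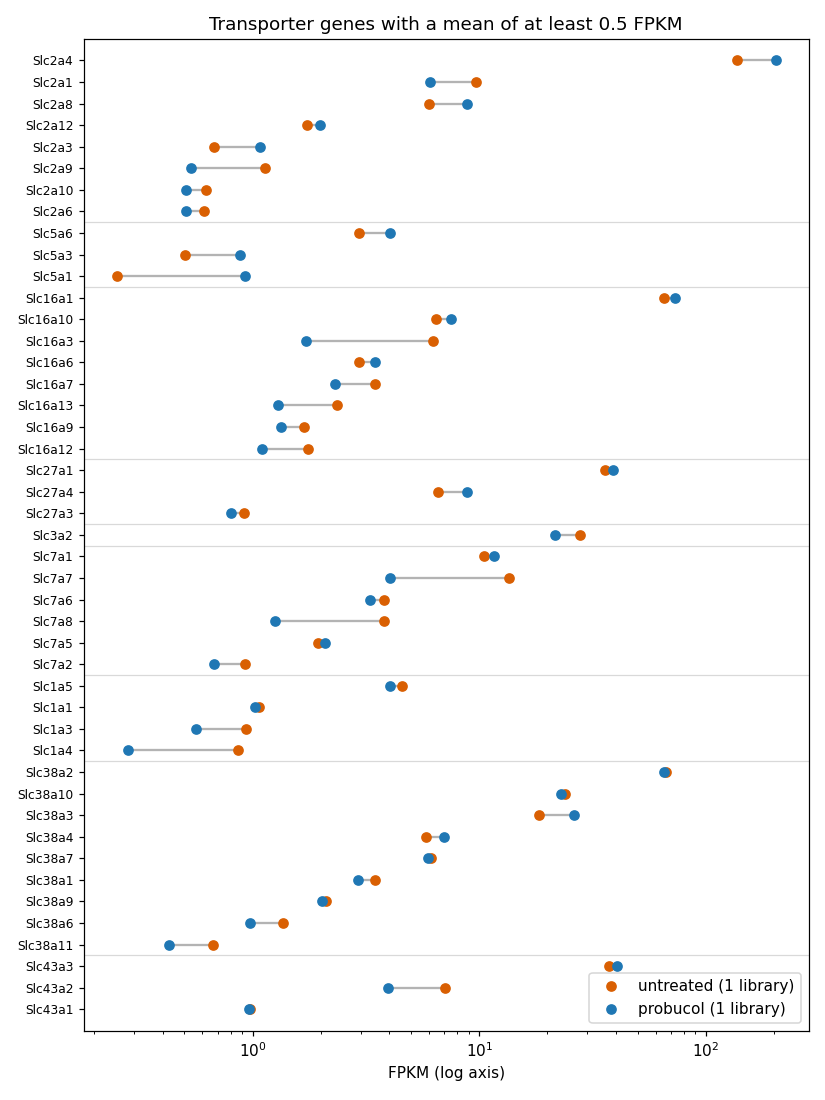
FPKM of 45 transporter genes with a mean of at least 0.5 FPKM, on a log axis, with 1 point for each library, grouped by family and ordered by level. Slc2a4 stood highest at 203 and 137 FPKM, and the longest distances between the libraries were those of Slc16a3, Slc7a7, Slc7a8, Slc1a4 and Slc5a1.

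A few members carried most of the transporter RNA. The 9 members with a mean of at least 10 FPKM held 82.2% of the summed FPKM of all members with probucol and 76.4% without. In the probucol library the order was Slc2a4, Slc16a1, Slc38a2, Slc43a3, Slc27a1, Slc38a3, Slc38a10, Slc3a2 and Slc7a1. In the untreated library, Slc38a2 (66.5 FPKM) and Slc16a1 (65.5 FPKM) stood close together, and Slc3a2 ranked above Slc38a10 and Slc38a3. Slc2a4 alone made up 33.1% of the members' sum with probucol and 24.7% without.

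Lower with probucol in all 8 processing settings, by at least 1.5-fold, were Slc7a7, Slc7a8, Slc16a3, Slc43a2 and Slc2a1. They export cationic amino acids (Slc7a7), exchange (Slc7a8) or carry (Slc43a2) neutral amino acids, release lactate (Slc16a3) and take up glucose (Slc2a1). Because these 5 were lower together, the bases around their starts are shown, from 250 before to 50 after the most upstream start in RefSeq (build GRCm38.p6). Capitals mark 3 short motifs searched on both strands: GAGGAA, the core read by the myeloid factor PU.1; ACGTG, the core of the hypoxia response element, which is also part of the E-box; and TGATGNAA, the element bound by C/EBP and ATF factors in the amino acid response.
Slc7a7, chr14:54417895-54418194, minus strand: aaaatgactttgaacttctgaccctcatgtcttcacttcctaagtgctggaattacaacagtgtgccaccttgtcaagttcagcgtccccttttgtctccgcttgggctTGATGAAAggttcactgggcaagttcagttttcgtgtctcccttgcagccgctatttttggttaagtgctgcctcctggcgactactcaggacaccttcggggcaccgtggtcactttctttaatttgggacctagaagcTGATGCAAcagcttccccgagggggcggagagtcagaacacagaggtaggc
Slc7a8, chr14:54781837-54782136, minus strand: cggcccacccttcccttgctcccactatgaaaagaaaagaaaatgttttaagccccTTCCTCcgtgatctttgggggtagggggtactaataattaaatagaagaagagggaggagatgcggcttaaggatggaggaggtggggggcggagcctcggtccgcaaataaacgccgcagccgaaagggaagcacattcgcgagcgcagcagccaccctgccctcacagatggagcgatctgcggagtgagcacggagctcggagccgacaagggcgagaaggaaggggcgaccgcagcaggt
Slc16a3, chr11:120948817-120949116, plus strand: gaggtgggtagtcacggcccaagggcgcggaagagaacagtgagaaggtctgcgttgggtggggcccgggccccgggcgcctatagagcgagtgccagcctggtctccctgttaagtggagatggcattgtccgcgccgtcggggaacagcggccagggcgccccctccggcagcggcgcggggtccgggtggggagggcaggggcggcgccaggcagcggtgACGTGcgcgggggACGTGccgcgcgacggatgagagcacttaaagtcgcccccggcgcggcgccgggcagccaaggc
Slc43a2, chr11:75531444-75531743, plus strand: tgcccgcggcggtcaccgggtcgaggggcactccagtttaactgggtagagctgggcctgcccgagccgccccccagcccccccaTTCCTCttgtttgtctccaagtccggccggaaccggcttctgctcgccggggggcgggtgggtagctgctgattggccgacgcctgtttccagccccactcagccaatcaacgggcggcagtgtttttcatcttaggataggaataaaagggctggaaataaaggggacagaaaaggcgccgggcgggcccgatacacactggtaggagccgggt
Slc2a1, chr4:119108495-119108794, plus strand: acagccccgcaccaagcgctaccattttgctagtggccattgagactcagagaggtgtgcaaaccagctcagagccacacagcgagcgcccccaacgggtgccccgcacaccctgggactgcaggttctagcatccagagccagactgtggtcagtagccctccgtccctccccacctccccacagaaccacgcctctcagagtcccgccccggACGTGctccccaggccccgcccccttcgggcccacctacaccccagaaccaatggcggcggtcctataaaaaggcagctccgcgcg
The Slc16a3 window held ACGTG at 2 places and the Slc2a1 window at 1 place. The windows of Slc7a8 and Slc43a2 each held GAGGAA once, on the reverse strand, and that of Slc7a7 held TGATGNAA at 2 places. The table has 5 windows for Slc7a7, some of them overlapping, of which the most upstream is shown; 3 of the 5 held GAGGAA, 2 held ACGTG and 2 held TGATGNAA. Slc43a2 has 2 windows, of which 1 held GAGGAA. Of 32851 promoter windows of this length in the table, GAGGAA was in 28.3%, ACGTG in 19.6% and TGATGNAA in 3.97%. Of the 47 windows of members past the filter, which belong to 35 genes, the motifs were in 10, 17 and 3. A match is a description of the letters and no evidence of binding.

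The 2 best-known glucose carriers of the heart differed in opposite directions. Slc2a4, the insulin-responsive carrier GLUT4 of muscle and fat (chromosome 11, 69942539 to 69948188, minus strand, GRCm38/mm10), had 203 FPKM with probucol and 137 FPKM without. Its counting interval was 1.41 to 1.57, from 3149 and 2366 fragments, and its log2 ratio of 0.57 was just under the 1.5-fold limit. Division of each library by its total FPKM made this log2 ratio 0.42. Slc2a1, the basal carrier GLUT1 of most cell types (chromosome 4, 119108711 to 119137983), had 6.07 FPKM with probucol and 9.63 FPKM without, 1.54-fold lower, with an interval of 0.503 to 0.791. The insulin-responsive carrier was thus higher and the basal one lower in the probucol library. Slc2a4 stood at 33.5 times the level of Slc2a1 with probucol and at 14.2 times without.

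Among the other GLUT genes the fragments were fewer. Slc2a8, the intracellular carrier GLUT8, had 8.84 FPKM with probucol and 5.999 FPKM without, with an interval of 1.10 to 1.97. When each library was divided by its total FPKM, the interval of Slc2a8 included a ratio of 1. Slc2a12 had 1.98 and 1.73 FPKM, and Slc2a3, the high-affinity GLUT3 of neurons and blood cells, had 1.08 and 0.678 FPKM from 27 and 19 fragments. For both of these the interval included a ratio of 1. Slc2a9, a urate carrier, had 0.535 FPKM with probucol and 1.14 FPKM without, 1.58-fold lower, with an interval of 0.112 to 1.78 that includes 1. That interval rests on 4 and 9 fragments, with the shortest of its 4 transcripts. With the longest they were 12 and 29, for which no interval was computed, so whether a difference was detectable depends on the transcript. Slc2a10 (0.509 and 0.623 FPKM) and Slc2a6 (0.508 and 0.607 FPKM) were near the filter, and Slc2a7, the intestinal carrier GLUT7, was listed at 0. Slc2a4 made up 91.1% of the summed Slc2 FPKM with probucol and 86.8% without, while Slc2a1 made up 2.72% and 6.11%.

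Genes that bring GLUT4 to the membrane gave a mixed picture. Of 24 genes of insulin signalling and GLUT4 traffic, 23 passed the filter, 3 were at least 1.5-fold higher and 0 lower, beside 5.52% and 12% of all genes, and the median log2 ratio was 0.11. The 3 with the largest difference were Irs1, the docking protein of the insulin receptor (7.77 against 3.05 FPKM), Txnip, a brake on glucose uptake (316 against 183 FPKM), and Tbc1d4, which holds GLUT4 vesicles back until it is phosphorylated (7.99 against 4.62 FPKM). An activator and brakes of glucose uptake were thus higher in the same library.

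Of the 13 sodium-coupled Slc5 carriers, 10 were listed at 0 and the other 3 had higher values in the probucol library. Over all genes past the filter, 6563 of 12882 had a log2 ratio above 0. Slc5a1, the glucose carrier SGLT1 of intestine, kidney and heart (chromosome 5, 33104219 to 33162870), had 0.922 FPKM with probucol and 0.252 FPKM without, 1.89-fold higher. It rests on 24 and 7 fragments, and its interval was 1.60 to 10.5. Slc5a3, the myo-inositol carrier, had 0.882 and 0.501 FPKM, with an interval of 1.16 to 2.68. Its annotated span lies within that of Mrps6 on the same strand, a gene with 50.6 and 38.4 FPKM, so how the reads of the pair were divided is uncertain. Slc5a6, the carrier of biotin and pantothenate, had 4.04 and 2.94 FPKM, with an interval of 0.978 to 1.96 that includes 1. SGLT2, encoded by Slc5a2 and known from the kidney, was among those listed at 0.

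**Figure D2:**
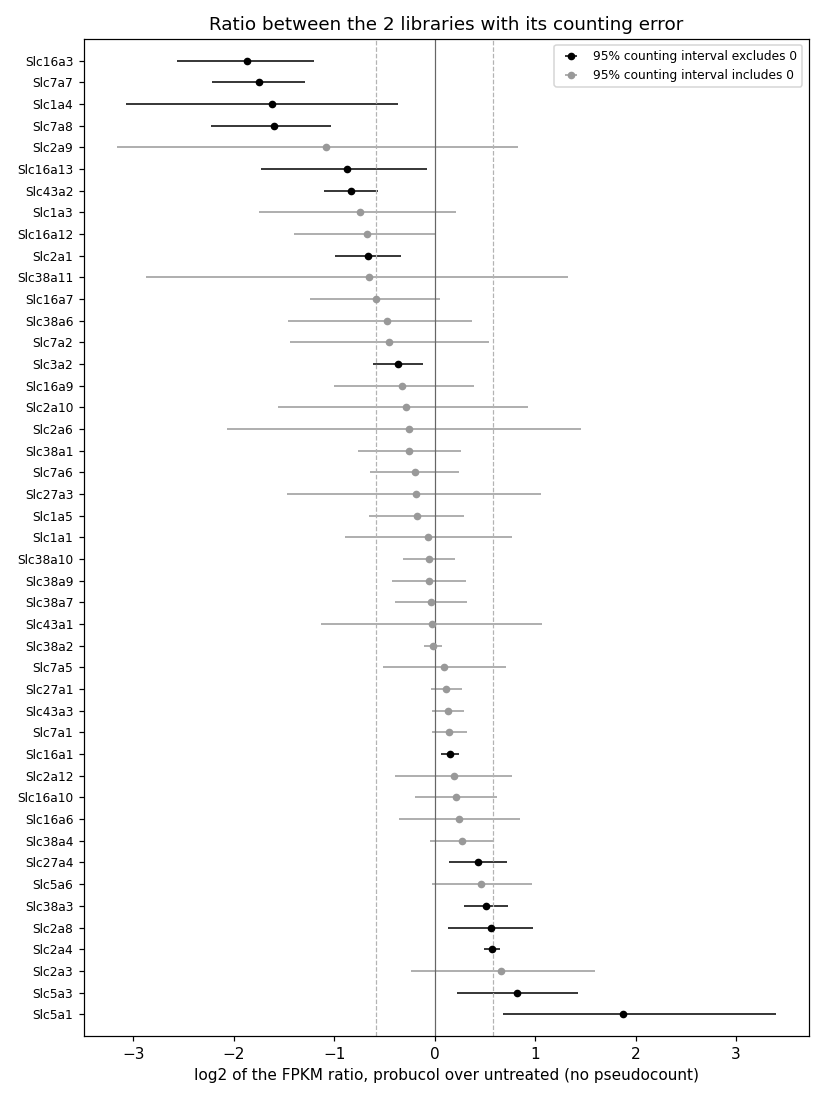
The log2 of the plain FPKM ratio, probucol over untreated and without pseudocount, of 45 transporters past the filter, with bars for the 95% counting interval; dashed lines mark 1.5-fold. Slc16a3, Slc7a7, Slc1a4 and Slc7a8, at the top, had the lowest ratios, Slc5a1, at the bottom, had the highest with a wide interval, and Slc2a4 lay just inside the 1.5-fold line with a narrow one.

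Of the lactate carriers, the abundant one differed little and a scarce one was lower with probucol. Slc16a1, the carrier MCT1 that moves lactate, pyruvate and ketone bodies into oxidative muscle (chromosome 3, 104638668 to 104658462), had 73.0 FPKM with probucol and 65.5 FPKM without, from 2058 and 2062 fragments. Its log2 ratio of 0.15 was 0.01 when each library was divided by its total FPKM. Slc16a3, the carrier MCT4 that lets lactate out of glycolytic cells (chromosome 11, 120948480 to 120960868), had 1.71 FPKM with probucol and 6.27 FPKM without, 3.06-fold lower. Its interval was 0.169 to 0.435, from 24 and 97 fragments with the shortest of its 3 transcripts and 47 and 193 with the longest. Slc16a7, the high-affinity carrier MCT2, had 2.30 and 3.45 FPKM, with an interval of 0.422 to 1.04 that includes 1. Slc16a1 stood at 42.5 times the level of Slc16a3 with probucol and at 10.5 times without, while the sum of the lactate carriers Slc16a1, Slc16a3, Slc16a7 and Slc16a8 was 77.5 and 75.5 FPKM.

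Of the helper glycoproteins, the abundant one was higher and the scarce one lower with probucol. Bsg, basigin, the partner of MCT1 and MCT4, had 1085 FPKM with probucol and 902 FPKM without. Emb, embigin, the partner of MCT2, had 2.104 FPKM with probucol and 5.32 FPKM without, with an interval of 0.264 to 0.573. Of 21 genes of sugar phosphorylation, lactate and pyruvate, 20 passed the filter, 4 were at least 1.5-fold higher and 3 lower, beside 5.52% and 12% of all genes, with a median of 0.35. The largest differences beside Emb were Hk3, the hexokinase of myeloid cells, with 1.11 against 6.64 FPKM, and Pdk2, a kinase that restrains pyruvate dehydrogenase, with 210 against 121 FPKM. Hk2, the hexokinase of muscle, chosen here for contrast after its value was seen, had 55.2 and 44.2 FPKM and stood at 49.5 times Hk3 with probucol and 6.66 times without.

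The remaining Slc16 members named here had lower levels than Slc16a1. Slc16a13 (chromosome 11, 70216789 to 70221064) had 1.29 FPKM with probucol and 2.37 FPKM without, 1.60-fold lower, with an interval of 0.302 to 0.950 from 20 and 41 fragments. Slc16a12, a creatine carrier, had 1.10 and 1.76 FPKM, with an interval that reaches 1.01. Slc16a10, which carries aromatic amino acids, had 7.47 and 6.45 FPKM, Slc16a6 had 3.48 and 2.95 FPKM and Slc16a9 had 1.34 and 1.68 FPKM. The intervals of these last 3 included 1. Slc16a6 overlaps Amz2 on the opposite strand (26.4 and 21.3 FPKM), and the sources used here do not say whether the counting used strand. Of the Slc16 members below the filter, Slc16a8, the retinal lactate carrier MCT3, came nearest to it, with 0.566 and 0.254 FPKM.

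Fatty acid transport proteins differed little. Slc27a1, the protein FATP1 that also activates fatty acids to their CoA esters (chromosome 8, 71568882 to 71587302), had 39.0 FPKM with probucol and 36.0 FPKM without, with an interval of 0.973 to 1.21, and its log2 ratio of 0.11 became -0.03 when the libraries were divided by their totals. Slc27a4, or FATP4 (chromosome 2, 29802634 to 29817522), had 8.84 FPKM with probucol and 6.55 FPKM without, with an interval of 1.11 to 1.64. After division by the library totals this interval included 1. Slc27a3 had 0.799 and 0.911 FPKM, from 11 and 14 fragments. Slc27a6, known as FATP6 and abundant in human heart, had 0.0625 and 0.0560 FPKM, which is 1 fragment in each library. Slc27a2 and Slc27a5, known from liver, were listed at 0. FATP1 thus made up 80.1% and 82.7% of the family's summed FPKM.

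Other genes of fatty acid uptake included some that were higher and some that were lower with probucol. Of 18 genes of long-chain fatty acid uptake and activation, 17 passed the filter, 6 were at least 1.5-fold higher and 3 lower, beside 5.52% and 12% of all genes, with a median log2 ratio of 0.37. Cd36, the surface translocase of fatty acids, had 1102 FPKM with probucol and 850 FPKM without, 28.3 and 23.6 times the level of Slc27a1. The largest differences were those of Acsl6, an acyl-CoA synthetase (3.45 against 1.19 FPKM), Fabp5, a binding protein of macrophages and vessels (115 against 253 FPKM), and Acsl4, a synthetase for arachidonic acid (4.12 against 8.01 FPKM). The muscle forms of the last 2, chosen after their values were seen, were higher with probucol: Fabp3 had 13345 and 8703 FPKM and Acsl1 had 439 and 301 FPKM.

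**Figure D3:**
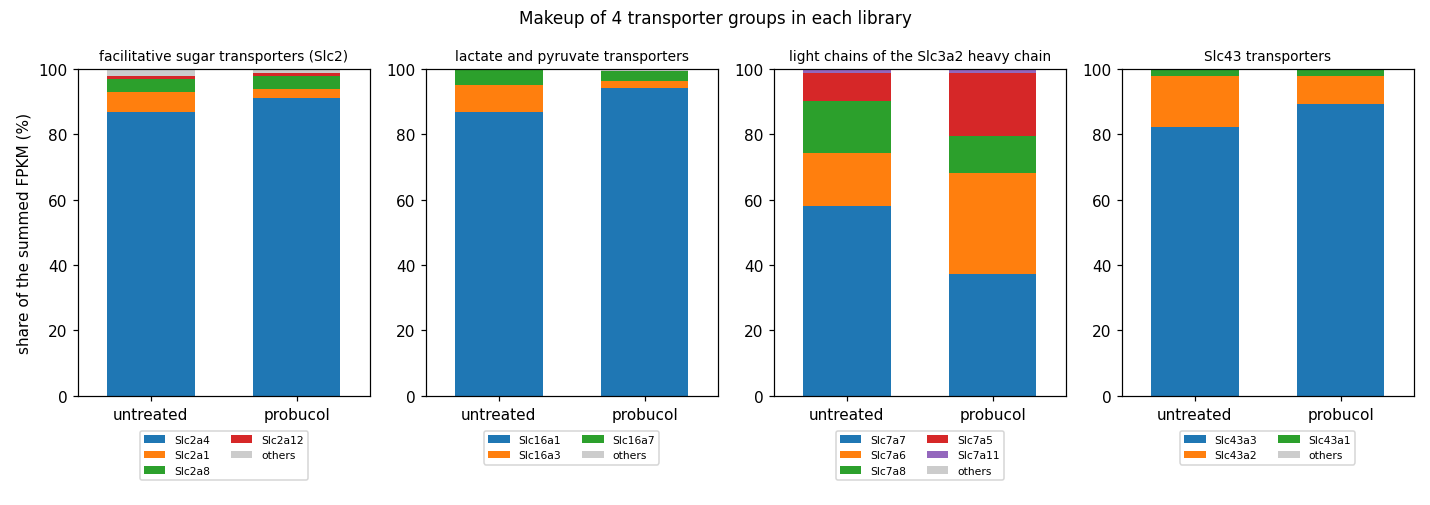
Share of the summed FPKM held by each gene in 4 transporter groups, as stacked bars from 0 to 100% for the untreated and the probucol library; genes under 1% in both are joined as others. Slc7a7 held 57.9% of the light chains without probucol and 37.4% with it, and in the other groups the most abundant member held over 80% in both libraries.

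Of the light chains of the amino acid exchangers, 2 were more than 2-fold lower with probucol. Slc7a7, the light chain y+LAT1 that exports cationic amino acids such as arginine and lysine in exchange for neutral ones (chromosome 14, 54369442 to 54417780, minus strand), had 4.04 FPKM with probucol and 13.6 FPKM without, 3.10-fold lower. Its counting interval was 0.216 to 0.408, from 52 and 194 fragments. Slc7a8, the light chain LAT2 for neutral amino acids (chromosome 14, 54722209 to 54781946, minus strand), had 1.249 FPKM with probucol and 3.78 FPKM without, 2.45-fold lower, with an interval of 0.214 to 0.490. These were the only Slc7 members past the filter with an interval below 1. Slc7a6, or y+LAT2, which does the same exchange as Slc7a7, had 3.31 and 3.80 FPKM, with an interval of 0.639 to 1.18. Slc7a5, or LAT1, which does much the same as Slc7a8, had 2.08 and 1.94 FPKM, with an interval of 0.698 to 1.64.

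The heavy chain differed by less than these light chains. Slc3a2, the heavy chain 4F2hc or CD98 (chromosome 19, 8706882 to 8723369), had 21.6 FPKM with probucol and 27.8 FPKM without, with a log2 ratio of -0.36 and an interval of 0.655 to 0.923. Its partners Slc7a5, Slc7a6, Slc7a7, Slc7a8, Slc7a10 and Slc7a11 summed to 10.8 FPKM with probucol and 23.4 FPKM without, a ratio of 0.461. Slc7a7 was the most abundant light chain in both libraries, at 57.9% of the light-chain sum without probucol and 37.4% with it, and Slc7a6 followed at 16.2% and 30.6%. The other heavy chain, Slc3a1 of kidney and intestine, was listed at 0.

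Slc7a7 and Slc7a8 lie on the same strand of chromosome 14 with 304429 bases between them. Genes listed between them did not share their ratio as a group. The proteasome subunit Psmb5 had a log2 ratio of 0.04, the ribosomal protein Mrpl52 had -0.01 and the splicing-related gene Acin1 had 0.07. The matrix metalloproteinase Mmp14 had -0.89. Mir686, a microRNA gene of 109 bases within the span of Psmb5, had -1.11, and its fragments were not estimated. These neighbours were chosen after their values were seen.

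For cystine and arginine, 1 carrier was well detected and the others were scarce. Slc7a11, the cystine and glutamate exchanger xCT that feeds glutathione synthesis, was below the filter, at 0.132 FPKM with probucol and 0.341 FPKM without, from 8 and 23 fragments, with an interval of 0.150 to 0.899. Slc7a1, the arginine carrier CAT1 (chromosome 5, 148327410 to 148399904), had 11.6 and 10.5 FPKM, with an interval of 0.979 to 1.247. Slc7a2, or CAT2, which supplies arginine to activated macrophages, had 0.676 and 0.927 FPKM from 16 and 24 fragments. Of 20 genes that use arginine, glutamine, glutamate and cystine, 13 passed the filter, with 1 past 1.5-fold on the lower side and 0 on the higher, beside 12% and 5.52% of all genes. That gene was Arg1, the arginase of macrophages and liver, with 0.235 FPKM with probucol and 2.95 FPKM without. Next came Gclc, the catalytic subunit of glutathione synthesis, at 4.41 and 6.78 FPKM, and Glul, glutamine synthetase, at 237 and 163 FPKM. A list of 14 genes held the antioxidant factor NRF2 itself (Nfe2l2) and its targets. Of these, 2 lay past 1.5-fold on the lower side and 0 on the higher, beside 12% and 5.52% of all genes. The median was -0.19. The 2 were Hmox1 (14.0 against 112 FPKM) and G6pdx (4.03 against 10.2 FPKM), the entry enzyme of the pentose phosphate path.

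Carriers of glutamate and small neutral amino acids were low. Slc1a5, the glutamine carrier ASCT2, was the most abundant of Slc1 at 4.04 and 4.57 FPKM, with an interval of 0.636 to 1.23. Slc1a4, or ASCT1, which carries serine and alanine (chromosome 11, 20302180 to 20332713), had 0.281 FPKM with probucol and 0.864 FPKM without, 1.75-fold lower, with an interval of 0.118 to 0.778 from 7 and 24 fragments. Slc1a3, a glutamate carrier, had 0.560 and 0.938 FPKM, and Slc1a1, another one, had 1.02 and 1.07 FPKM, both with intervals that include 1. The 4 Slc1 members past the filter all had log2 ratios below 0, from -0.80 to -0.04, beside 49.1% of all genes below 0. Of the 4, only Slc1a4 had an interval that excluded 1.

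Among the sodium-coupled Slc38 carriers only Slc38a3 of 9 past the filter had an interval that excluded 1 without rescaling. Slc38a3, the glutamine carrier SNAT3 (chromosome 9, 107650634 to 107669530), had 26.2 FPKM with probucol and 18.3 FPKM without, with a log2 ratio of 0.50 and an interval of 1.23 to 1.66. Slc38a2, the carrier SNAT2 that cells raise when amino acids run short (chromosome 15, 96687392 to 96699730), had 65.6 and 66.5 FPKM, with an interval of 0.928 to 1.05. Its 1953 and 2209 fragments make this one of the narrowest intervals of the members. Slc38a10 had 22.9 and 23.9 FPKM, and Slc38a9, the arginine sensor of the lysosome, had 2.02 and 2.11 FPKM. Slc38a7, a lysosomal glutamine carrier, had 5.93 and 6.10 FPKM. Slc38a4 had 7.02 and 5.82 FPKM, Slc38a1 had 2.92 and 3.48 FPKM, Slc38a6 had 0.977 and 1.36 FPKM and Slc38a11 had 0.427 and 0.670 FPKM. On chromosome 15, Slc38a1, Slc38a2 and Slc38a4 lie in a row on 1 strand, with log2 ratios of -0.22, -0.02 and 0.25.

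The amino acid response, in which the factor ATF4 induces carriers such as Slc38a2, Slc7a11 and Slc7a5, was read from 22 other genes. Of these, 21 passed the filter, with 4 past 1.5-fold on the lower side and 1 on the higher, beside 12% and 5.52% of all genes, and a median log2 ratio of -0.24. The largest differences were those of Atf3, a stress-induced factor (9.46 against 18.3 FPKM), Psat1, an enzyme of serine synthesis (3.12 against 6.18 FPKM), and Gdf15, a stress hormone (4.09 against 7.80 FPKM).

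Of the Slc43 carriers, the most abundant had an interval that includes a ratio of 1 and a scarcer one was lower with probucol. Slc43a2, the neutral amino acid carrier LAT4 (chromosome 11, 75531694 to 75577575), had 3.95 FPKM with probucol and 7.05 FPKM without, 1.69-fold lower, with an interval of 0.467 to 0.676 from 177 and 351 fragments. Slc43a3, a purine nucleobase carrier (chromosome 2, 84936579 to 84958509), had 40.7 and 37.2 FPKM, with an interval of 0.980 to 1.22, and its log2 ratio of 0.13 became -0.02 when the libraries were divided by their totals. Slc43a1, or LAT3, had 0.961 and 0.977 FPKM. Slc43a3 stood at 10.3 times the level of Slc43a2 with probucol and 5.28 times without.

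**Figure D4:**
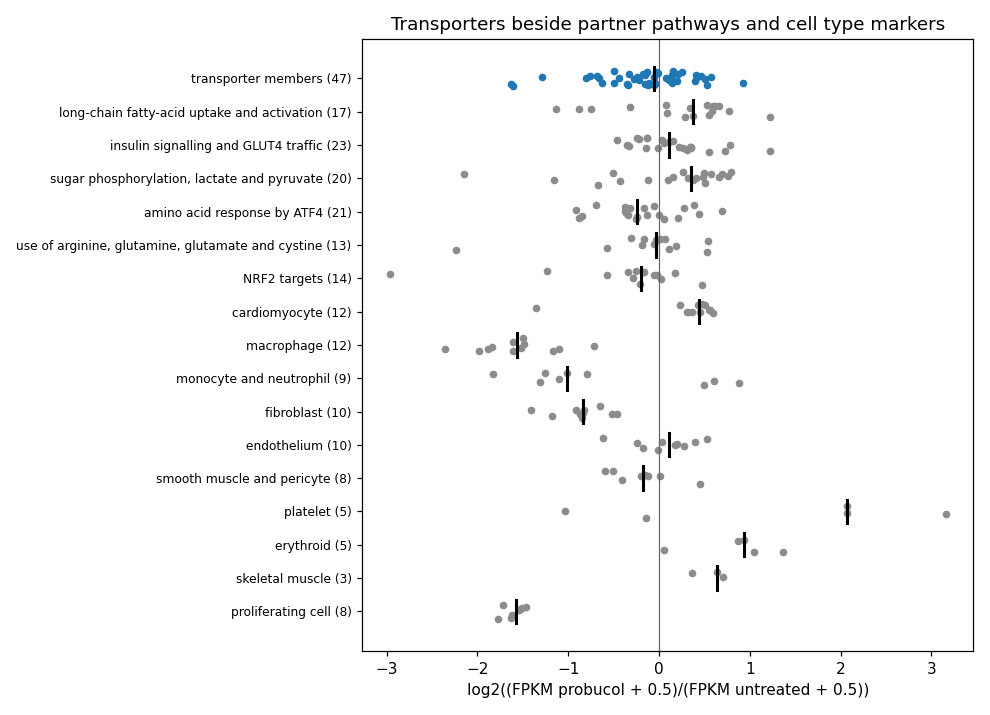
Log2 ratio, probucol over untreated, of each gene past the filter, by list, with the number of genes in brackets and a bar at the median; transporter members are in blue and spread at random in height. The members spread from -1.63 to 0.92 around a median of -0.06, between cardiomyocyte markers with a median of 0.44 and macrophage markers with a median of -1.56.

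The members below the filter carry little information at this depth. The 18 that were detected reached at most 0.566 FPKM in either library. Among them, chosen after its value was seen, Slc7a4 had 0.148 FPKM with probucol and 0.487 FPKM without, from 3 and 11 fragments, with an interval of 0.0545 to 1.15, and it overlaps P2rx6 on the opposite strand. The pseudogene Slc2a4rg-ps had 0.430 and 0.0964 FPKM, from 8 and 2 fragments. Slc7a6os, which passed the filter without being a transporter, had 6.92 and 7.52 FPKM, close to its neighbour Slc7a6 in log2 ratio (-0.11 and -0.18). Beside the genes already named, those listed at 0 in both libraries were Slc5a4a, Slc5a4b, Slc5a5, Slc5a7, Slc5a8, Slc5a9, Slc5a10, Slc5a11, Slc5a12, Slc7a10, Slc7a12, Slc7a13, Slc7a15, Slc16a14 and Slc38a8. A value of 0 allows up to 3 fragments.

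The members' log2 ratios can be set beside those of the marker lists, whose spans overlap. Slc7a7 (-1.63), Slc16a3 (-1.61) and Slc7a8 (-1.29) lay within the span of the 12 macrophage markers, from -2.35 to -0.72, and Slc43a2 (-0.76) and Slc1a4 (-0.80) lay at its upper end. Proliferation markers, from -1.78 to -1.46, also spanned Slc7a7 and Slc16a3, and the mixed monocyte and neutrophil markers, from -1.82 to 0.88, spanned all 5. Fibroblast markers ranged from -1.41 to -0.47, which includes Slc7a8, Slc43a2, Slc1a4 and Slc2a1 (-0.63). Slc2a4 (0.57), Slc2a8 (0.52) and Slc38a3 (0.50) lay near the cardiomyocyte median of 0.44. Cardiomyocyte markers ranged from -1.36 (Nppa) to 0.59 (Myl2), which also includes Slc7a8, Slc43a2, Slc1a4 and Slc2a1, though only Nppa was below 0. The spans of the erythroid, skeletal muscle (0.37 to 0.71), platelet (-1.04 to 3.16) and monocyte and neutrophil markers also held Slc2a4, Slc2a8 and Slc38a3. That of the endothelial markers (-0.61 to 0.525) held Slc2a8 and Slc38a3. Slc5a1 (0.92), the highest member, lay above every cardiomyocyte marker. It was within the span of the erythroid markers, from 0.06 to 1.36, and within that of the platelet markers. Which cells carried these transcripts was not tested.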

How the data were processed

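Gene expression was measured in 2 heart libraries. The values that the authors deposited are FPKM, 1 per gene symbol and library, per the file headers. Cuffdiff 2.2.1, TopHat2 2.1.1, Bowtie2 and build mm10 are named in the submitters' processing notes. The sources used here do not state the annotation, the options or how libraries were scaled.

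Ratios used a pseudocount of 0.5 FPKM and genes with a mean of at least 0.5 FPKM, without rescaling, and were counted past 1.5-fold and 2-fold. The value of 1 fragment was set on 7894 genes with 1 GENCODE M21 transcript of over 800 bases, with 205 bases subtracted from the length. Of those with 1 to 5 fragments, 72.6% (probucol) and 74.1% (untreated) fell within 0.1 of a whole number. Lengths may differ from those the authors used, and for genes with several transcripts the fragments are approximate. A count of 0 allows up to 3 fragments. Every member past the filter could be named, with well-known or near-filter members below it, and of other lists the 3 largest ratios and partner subunits. The members and lists were chosen with earlier results of these data known. Promoter windows came from RefSeq (GRCm38.p6), where 62 of the 85 members matched. Of the members past the filter, 1 is not reported here by name, though it counts in the totals. The procedure was tested on simulated data. Python 3.11.15, pandas 2.3.3 and scipy 1.17.1 were used.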

Additional observations from a re-analysis of the deposited data

How the results depend on the processing

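No paired analysis was possible because each group has 1 library, and for the same reason no replicate could be left out. Under 7 alternatives, the counts of members past a limit stayed within 1.5 times the reported ones except as follows. With a pseudocount of 0.1 FPKM, 3 members were at least 1.5-fold higher and 1 at least 2-fold higher. With a pseudocount of 1 FPKM, 5 were at least 1.5-fold lower. With a mean of at least 1 FPKM required, 0 were at least 1.5-fold higher, and with no filter 2 were. The library totals differed 1.11-fold, and dividing by them moved the median of all genes by -0.13. Then 11 members had counting intervals below 1 and 4 above 1, in place of 8 and 7. The intervals of Slc2a8, Slc16a1 and Slc27a4 came to include 1. Those of Slc16a7, Slc16a12 and Slc38a2 came to lie below it. After that division the median of the ATF4 list was -0.38, in place of -0.24. The median of the cardiomyocyte markers was then 0.29, in place of 0.44, and the log2 ratio of Slc2a4 was 0.42, in place of 0.57. Of single genes called past 1.5-fold, 0 changed direction. Slc1a4, Slc16a13 and Slc2a9 lost the 1.5-fold limit with a pseudocount of 1 FPKM, at -0.54, -0.56 and -0.48. Few fragments limit the members under about 1 FPKM.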
